A study of Mus musculus with 12 samples.

Results

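The response to lipopolysaccharide (LPS) was compared between WT and ACAT1 KO J774A.1 cells, a mouse macrophage line, as the interaction of genotype and LPS: the log2 LPS change in ACAT1 KO lines minus the log2 LPS change in WT lines. All 12 of 12 RNA-seq libraries entered the comparison, namely 3 WT and 3 ACAT1 KO lines, each left unstimulated and given 100 ng/ml LPS for 2 hours. The WT lines had received the Cas9-GFP vector with no guide, and the ACAT1 KO lines the same vector with a guide aimed at the fourth exon of Acat1, so both had gone through transfection, sorting on GFP and expansion from a few sorted cells per well. Genotype differences therefore come from 3 lines per genotype. Differences between clones that have nothing to do with the edit cannot be told apart from the edit in any single line. The same holds for such differences where all lines of a genotype share them. Counts were joined over the 16699 genes held by both tables of 18719 in any table, and 16535 genes were tested after a filter on low counts. Without a term for the line (a block), each p-value measures the spread between the lines of a genotype within a state. That fit takes the 12 libraries as independent. With the block, the p-value measures the spread of the LPS change between the lines of a genotype.

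LPS is sensed at the macrophage surface by Toll-like receptor 4, whose adaptors start an early wave of NF-kB dependent cytokine and chemokine transcription and, through TRIF and IRF3, the transcription of interferon-beta. Secreted interferon-beta then acts back on the same cells through the type I interferon (T1IFN) receptor and a factor complex that holds STAT2 and IRF9, binds interferon-stimulated response elements and switches on antiviral genes. ACAT1 is a mitochondrial thiolase that the study describes as a distal enzyme in the breakdown of fatty acids, isoleucine and ketone bodies. The study asked whether its loss alters T1IFN signaling. A positive interaction says that a gene rose more, or fell less, after LPS in ACAT1 KO lines than in WT lines.

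The targeted gene came first. Acat1 (chr9:53580522-53610382, minus strand, GRCm38) was measured at 108, 107 and 80.8 CPM, counts scaled to the library total, in unstimulated WT lines 1 to 3 and at 85.4, 95.4 and 65 CPM after LPS, and in ACAT1 KO lines at 28.9, 25.5 and 26.1 CPM before and 19.9, 18.5 and 18.9 CPM after LPS. No ACAT1 KO library reached the level of a WT library, although transcript remained. The genotype difference was -1.88 (log2, SE 0.14) without stimulation (edgeR, adjusted p = 0.000273) and -2.10 (SE 0.14) after LPS (edgeR, adjusted p = 6.38e-05). Its own interaction was -0.22 and did not pass the test (edgeR, adjusted p = 0.857 and, with the line as a block, 0.214). All 9 macrophage markers, among them Spi1, Csf1r and Cd68, averaged at least 1 CPM, and their sum lay between 8933 and 9883 CPM in unstimulated WT, 10113 and 11514 CPM in unstimulated ACAT1 KO, 8802 and 9152 CPM in LPS-treated WT and 9146 and 10590.2 CPM in LPS-treated ACAT1 KO lines. Library totals ran from 56948593 to 167280149 counts. Unstimulated WT line 1 stood apart, with 9.32% of its counts on mitochondrial genes against 2.14% to 4.05% in the others. Genes antisense to others took 0.0393% to 0.0592% of the counts in unstimulated WT lines 1 and 2 and ACAT1 KO line 2 and at most 0.0154% in the other 9 libraries. The part of this difference in the results was not tested, and values within the lines of high share and within those of low share are given beside some of the lists and genes. ACAT1 KO line 2 was the only ACAT1 KO line of high share, and WT line 3 the only WT line of low share.

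Most of the LPS response was shared by the genotypes. In WT lines 4850 genes rose (29.3%) and 4638 fell (28%) after LPS at an adjusted p under 0.05, and in ACAT1 KO lines 4871 rose (29.5%) and 5166 fell (31.2%). Across all 16535 genes the 2 responses had a Pearson correlation of 0.947 as a description across genes, which are not independent replicates. Without a block for the line, 31 genes had an interaction, 0.187% of those tested, of which 8 were positive (0.0484%) and 23 negative (0.139%) (edgeR quasi-likelihood F test, Benjamini-Hochberg). With the line as a block, 288 genes passed, 1.74% of those tested, with 138 positive (0.835%) and 150 negative (0.907%). At an unadjusted p under 0.05, 1475 genes (8.92%) passed without the block, 542 positive (3.28%) and 933 negative (5.64%), and 14% with it. All 31 were among the 288, and all 288 had the same direction in both fits. The common biological coefficient of variation was 0.185 without the block and 0.098 with it. The block rests on a pairing of libraries by line number that was inferred from the data and not stated by the labels. Deviations of the same-numbered libraries from their group means correlated above those of all other pairs, but over all genes the lowest, at 0.0913, missed the limit of 0.1 set for pairing, so calls made with the block alone are less certain than the 31. Scaling by the upper quartile, which shifted the median interaction of all genes by 0.0598, changed the split of the calls from 25.8% to 43.5% positive without the block and from 47.9% to 62.7% with it.

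**Figure D1:**
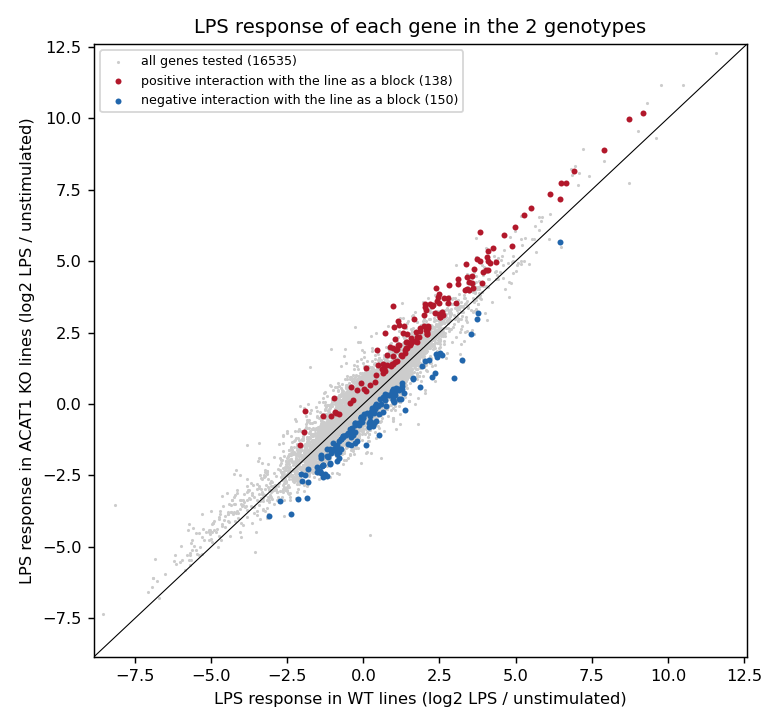
Log2 LPS response of each of 16535 genes in WT lines (x axis) and in ACAT1 KO lines (y axis), with the line of equal response in black. Red points are the 138 genes with a positive and blue points the 150 with a negative interaction when the line was a block; the red points lie mostly among genes that rose in both genotypes.

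The genes past the threshold differed in the state in which the genotypes parted. Of the 138 positive genes, 126 were lower in ACAT1 KO than in WT lines without stimulation, 96 had their larger genotype difference there, and their median genotype difference was -0.58 (log2) without stimulation and 0.14 after LPS. Of all 16535 genes tested, 8388 were lower in ACAT1 KO lines without stimulation and 9041 after LPS. The genotype difference was larger without stimulation in 7968 of the 16535. Of these 138, 121 rose in both genotypes, 5 rose past the threshold in ACAT1 KO alone, 7 fell in both, 4 fell past the threshold in WT alone and 1 fell in WT and rose in ACAT1 KO. For the 150 negative genes the order of the states was the other way round, with a median genotype difference of 0.011 without stimulation and -0.65 after LPS. After LPS 147 of these were lower in ACAT1 KO lines, and 10 had their larger genotype difference without stimulation. Among them 67 fell in both genotypes, 43 rose in both, 17 fell past the threshold in ACAT1 KO alone, 12 rose past it in WT alone and 11 rose in WT and fell in ACAT1 KO. The 288 genes were chosen by the difference between the states, so these counts describe them and are no test.

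**Figure D2:**
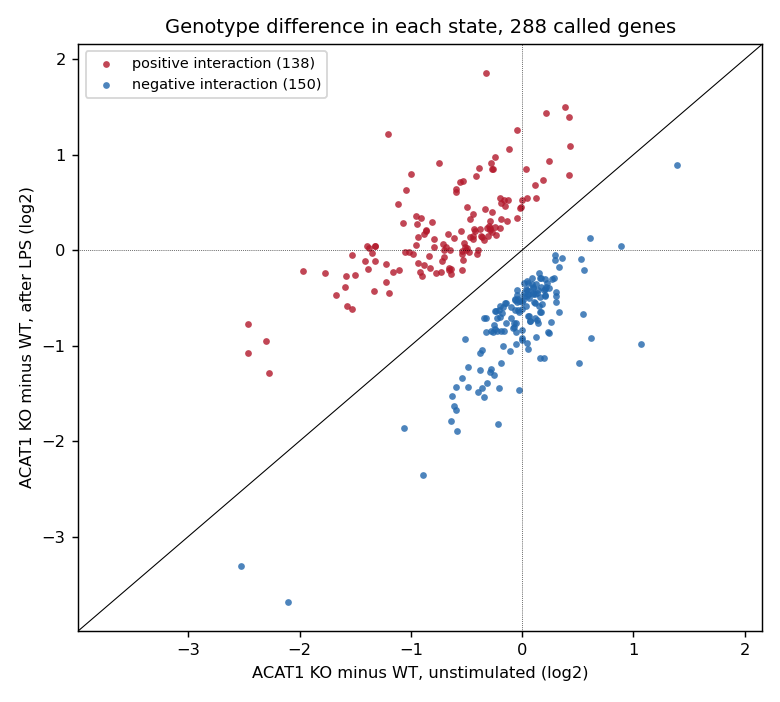
Genotype difference (ACAT1 KO minus WT, log2) without stimulation (x axis) and after LPS (y axis) for the 138 genes with a positive interaction (red) and the 150 with a negative one (blue). The red points spread along the x axis at values below 0, with a median of -0.58, and the blue points centre near 0 on the x axis and below 0 on the y axis, with a median of -0.65.

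The interferon-stimulated antiviral genes made up the largest group of positive calls among the 19 lists examined. With the line as a block, 36 of 59 list members tested had a positive interaction and none a negative one, against 0.835% and 0.907% of all genes. Without the block 1 of them, Gbp7, passed. The shares of all genes, 0.835% positive and 0.907% negative, are also the background to the counts with the block in the other lists. Some lists share members, so that a gene can be counted in more than 1 of them. The median interaction of the antiviral list was 0.62 (log2) against -0.038 over all genes. Of its 59 values 58 were above 0, against 6838 of 16535 over all genes. In 50 genes the LPS change of each ACAT1 KO line was above that of each WT line, a pattern seen in 6.89% of all genes. The list rose by a median of 3.10 in WT and 3.54 in ACAT1 KO lines. The median genotype difference of the list was -0.65 without stimulation and 0.00049 after LPS. The median interaction was 0.65 within the lines of high antisense share and 0.50 within those of low share.

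Usp18, the protease that removes ISG15 from its targets and dampens interferon receptor signaling (chr6:121245906-121270917, plus strand), stood at 28.8, 45.5 and 34.7 CPM in unstimulated WT lines and 10.5, 12.7 and 8.83 CPM in unstimulated ACAT1 KO lines, and reached 292, 431 and 401 CPM and 298, 361 and 294 CPM after LPS. The genotypes did not overlap without stimulation and overlapped after LPS. The interaction of Usp18 was 1.53 (SE 0.27; edgeR, adjusted p = 0.0533) without and 1.53 (SE 0.10; adjusted p = 0.00118) with the block. Gbp7, a guanylate-binding protein (chr3:142530342-142550149, plus strand), went from 10.2, 13.4 and 12.2 to 186, 241 and 249 CPM in WT lines and from 5.22, 4.89 and 4.16 to 229, 210.5 and 186 CPM in ACAT1 KO lines. It was lower in every unstimulated ACAT1 KO line, overlapped after LPS, and passed in both fits with an interaction of 1.21 (SE 0.19; edgeR, adjusted p = 0.0383 without and 0.00118 with the block). Guanylate-binding proteins are close relatives, as are the Oas, Ifi200 and Slfn families, so reads may be split between their members.

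The ubiquitin-like modifier Isg15 (chr4:156199424-156200818, minus strand) had 8.93, 11.6 and 10.8 CPM in unstimulated WT lines against 6.63, 5.82 and 3.82 CPM in ACAT1 KO lines, and 251, 367 and 376 against 446, 422 and 335 CPM after LPS. For Mx1, a dynamin-like antiviral GTPase (chr16:97447035-97462907, minus strand), the WT lines had 3.76, 5.72 and 7.08 and then 151, 275 and 339 CPM, and the ACAT1 KO lines 2.62, 3.5 and 1.92 and then 304, 353 and 273 CPM. Both genes were lower in each ACAT1 KO than in each WT line without stimulation and overlapped after LPS. Their interactions with the block were 1.25 (SE 0.12; edgeR, adjusted p = 0.00421) and 1.37 (SE 0.13; adjusted p = 0.00463), and neither passed without it (adjusted p = 0.129 and 0.293). Mx2 at 1.34, Ifi44l at 1.38, Ifi204, a cytosolic DNA sensor family member, at 1.09 and the mitochondrial nucleotide kinase Cmpk2 at 1.27 were likewise positive with the block (edgeR, adjusted p = 0.00366, 0.003, 0.003 and 0.00366). Cmpk2 lies on chromosome 12, whose genes were lower in ACAT1 KO lines by a median of -0.27 without stimulation and -0.31 after LPS, while their median interaction was -0.056. Neurl3, a ubiquitin ligase of the Neuralized family (chr1:36264597-36274679, minus strand) that belongs to no list, had 38.7, 46.2 and 44.1 CPM in unstimulated WT lines against 8.93, 9.27 and 5.22 CPM in ACAT1 KO lines, and 72.8, 105 and 84.3 against 54.2, 60.5 and 38.3 CPM after LPS. It was the one of these genes that stayed below WT in every ACAT1 KO line in both states, with an interaction of 1.71 with the block (SE 0.10; edgeR, adjusted p = 0.00118, and 0.0613 without).

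**Figure D3:**
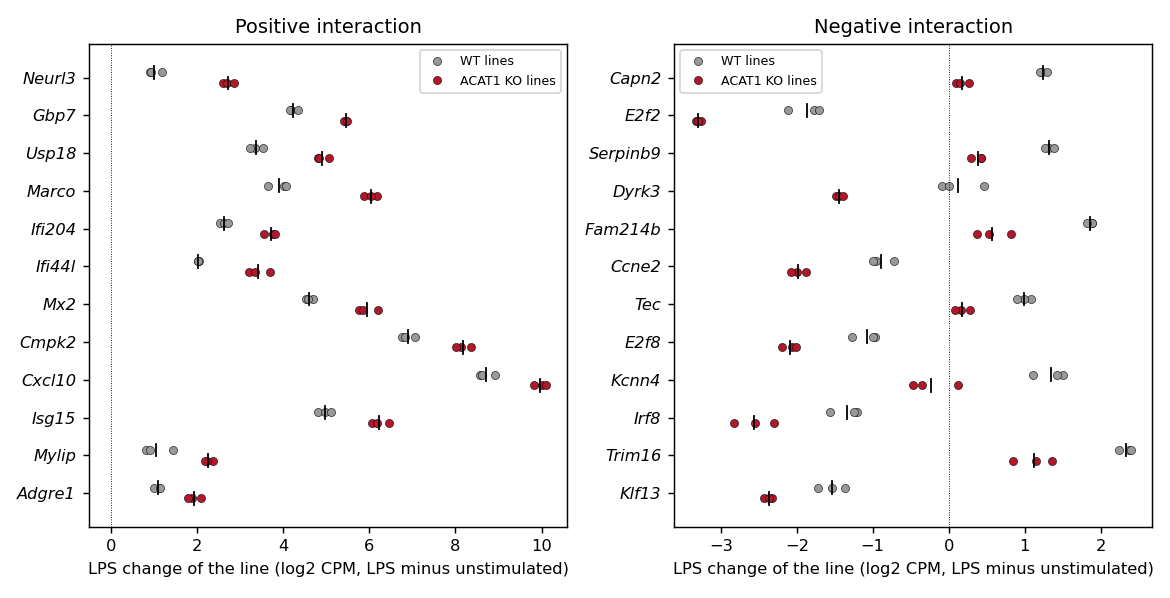
LPS change of each line (log2 CPM after LPS minus log2 CPM without stimulation) for 12 genes with a positive and 12 with a negative interaction; grey points are the 3 WT lines, red points the 3 ACAT1 KO lines, and black ticks the means. In all 24 genes the lines of one genotype do not overlap those of the other, as in 20.4% of all genes. The 24 were chosen from the 138 positive and 150 negative genes called with the block. None of those overlapped, so this is no test.

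Signal transducers and transcription factors of the pathway were mixed in direction. Of 26 interferon receptor, JAK-STAT and IRF genes tested, 4 were positive and 2 negative with the block, and the list median was -0.043. Stat2 (chr10:128270559-128292849, plus strand), the transducer that joins IRF9, had 35.6, 55.9 and 45.7 CPM in unstimulated WT lines and 20.4, 21.4 and 19.6 CPM in ACAT1 KO lines, and 258, 348 and 337 and 257, 294 and 253 CPM after LPS. Each unstimulated ACAT1 KO line was lower than each WT line, the groups overlapped after LPS, and the interaction was 0.92 (SE 0.09; edgeR, adjusted p = 0.00421 with the block and 0.115 without). Irf7, the factor that amplifies interferon transcription, had 38.7, 64.2 and 56.9 against 25, 25.8 and 13.3 CPM without stimulation and 235, 317 and 341 against 320.2, 349 and 253 CPM after LPS. Its interaction of 1.40 was the largest positive value among the called genes of this list (edgeR, adjusted p = 0.00708 with the block and 0.173 without), and Irf1 had 0.59 (adjusted p = 0.0151 and 0.465). Irf3, the kinase-activated factor upstream of interferon-beta, had an interaction of -0.08 and did not pass (edgeR, adjusted p = 0.963 without and 0.822 with the block). Cish, a STAT5-induced inhibitor of cytokine signaling, had -0.80 with the block (edgeR, adjusted p = 0.0414), and Socs3, an inhibitor of gp130 signaling, had 0.40 and did not pass (adjusted p = 0.671).

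Irf8, a lineage factor of monocytes and macrophages (chr8:120736358-120756694, plus strand), moved the other way. It had 164, 154 and 160.4 CPM in unstimulated WT lines and 227, 232 and 239 CPM in ACAT1 KO lines, and fell to 55.4, 67.1 and 67.6 CPM in WT and 46.1, 39.5 and 33.6 CPM in ACAT1 KO lines after LPS. Every ACAT1 KO line was above every WT line without stimulation and below every WT line after LPS. The interaction was -1.22 (SE 0.15; edgeR, adjusted p = 0.0195 without and 0.0084 with the block).

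Among the cytosolic nucleic acid sensing genes, 5 of 21 tested were positive with the block and none negative, against 0.835% and 0.907% of all genes. Of these 5, Dhx58 and Eif2ak2 are also members of the antiviral list and were counted there. The median of the sensing list was 0.17. This median was 0.32 within the lines of high antisense share and 0.00768 within those of low share, and 0.0797 to 0.26 in fits with the block that left out a line. Ifih1, which encodes the RNA sensor MDA5 (chr2:62595798-62646255, minus strand), had 36.5, 42.1 and 37.7 CPM in unstimulated WT lines and 27.2, 30.1 and 23.3 CPM in ACAT1 KO lines, then 487, 724 and 781 and 1131, 1195 and 969.9 CPM after LPS. It was below WT in each unstimulated ACAT1 KO line and above WT in each one after LPS, with an interaction of 1.28 (SE 0.14; edgeR, adjusted p = 0.00709 with the block and 0.0572 without). The RIG-I gene Ddx58 had 0.78, its regulator Dhx58 0.72, the RNA-activated kinase gene Eif2ak2 0.56 and the RNA-editing enzyme gene Adar 0.53 (edgeR with the block, adjusted p = 0.00546, 0.0111, 0.0182 and 0.0276). Of 19 MHC class I antigen processing genes, 1 was positive, H2-T23 at 0.46 (adjusted p = 0.0218), and the list median was 0.022.

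The promoters of the positive genes were searched for the core of the interferon-stimulated response element, written GAAA, any 2 bases, GAAA, on both strands of the RefSeq window from 250 bases before to 50 after the start (GRCm38.p6). Promoters were matched by symbol for 103 of the 138 positive genes, 118 of the 150 negative genes and 10431 of the genes tested. The core was present in 25 of the 103 positive promoters (24.3%), in 5 of the 118 negative ones (4.24%) and in 3.99% of all. Outside the interferon, JAK-STAT and sensing lists it was present in 7 of 69 positive promoters (10.1%). These lists do not hold every interferon-stimulated gene, so that share does not describe genes free of interferon control. The share among genes with a like rise after LPS was not computed. The kappaB motif, written GGGA, any base, TTTCC, was found in 1 positive promoter (0.971%), in no negative one and in 0.575% of all, and the E2F motif, TTT followed by CCCGC or GGCGC and chosen after the values were seen, was in 6 negative promoters (5.08%), in no positive one and in 3.38% of all. These matches describe letters and are not measured binding. Stretches before the start of 4 positive genes are printed to show the core, in capitals, in its surroundings, 5′ to 3′ on the strand of the gene, at chr3:142530233-142530335 (plus), chr4:156200825-156200934 (minus), chr5:92349043-92349139 (minus) and chr10:128270248-128270335 (plus).
Gbp7: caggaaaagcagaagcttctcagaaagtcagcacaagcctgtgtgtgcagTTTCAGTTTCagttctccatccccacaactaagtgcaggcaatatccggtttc
Isg15: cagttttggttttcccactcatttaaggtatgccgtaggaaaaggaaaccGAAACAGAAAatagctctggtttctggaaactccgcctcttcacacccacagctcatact
Cxcl10: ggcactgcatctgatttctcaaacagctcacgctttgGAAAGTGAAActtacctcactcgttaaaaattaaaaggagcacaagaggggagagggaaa
Stat2: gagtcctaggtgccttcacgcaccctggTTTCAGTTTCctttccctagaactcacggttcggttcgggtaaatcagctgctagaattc
In Gbp7 and Stat2 the core lay on the opposite strand, so that the capitals show its reverse complement. Of the other positive genes named so far, Ifih1, Ddx58, Eif2ak2 and H2-T23 had a match in the window. Irf7, Irf1, Ifi44l, Cmpk2, Neurl3 and Adar had a promoter and no match to the core in it. Usp18, Mx1, Mx2, Ifi204 and Dhx58 had no promoter matched by symbol. Marco, Il1b, Il1rn, Mylip and Sdc4, described below, had a promoter without a match.

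Cytokine and chemokine genes were mostly outside the calls. Of 23 cytokine genes tested, 3 were positive with the block (Il1b, Il1rn and Tnfsf9) and none negative, with a median of 0.35, and of 14 chemokine ligand genes 1 was positive, Cxcl10, with a median of 0.0092. Over all genes 0.835% were positive and 0.907% negative. Cxcl10 is also a member of the antiviral list. The cytokine median was 0.35 within the lines of high antisense share and 0.0487 within those of low share, and the chemokine median 0.0725 and 0.0142. Cxcl10 (chr5:92346638-92348889, minus strand), the chemokine for CXCR3 cells, had 6.62, 8.96 and 7.63 CPM in unstimulated WT lines and 4.87, 4.26 and 3.22 CPM in ACAT1 KO lines, and 2503, 3511 and 3712 and 4386, 4382 and 3531 CPM after LPS. Each ACAT1 KO line was lower than each WT line without stimulation, the groups overlapped after LPS, and the interaction was 1.26 (SE 0.12; edgeR, adjusted p = 0.00415 with the block and 0.0884 without). Il1b, the inflammasome substrate (chr2:129364570-129371139, minus strand), had 2.76, 3.39 and 3.29 against 5.85, 2.97 and 2.06 CPM without stimulation, where the genotypes overlapped, and 142, 270.0 and 244 against 724, 651 and 404 CPM after LPS, where they did not. The interaction of Il1b was 1.32 (SE 0.24; edgeR, adjusted p = 0.0364 with the block and 0.482 without), and that of the receptor antagonist gene Il1rn 1.28 (adjusted p = 0.0359 and 0.15). Il1b lies on chromosome 2 beyond 90 Mb, whose genes were higher in ACAT1 KO lines by a median of 0.28 without stimulation and 0.26 after LPS, while their median interaction was -0.039. The costimulatory ligand gene Tnfsf9 had 0.54 (edgeR with the block, adjusted p = 0.0172).

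Tnf had 70.1, 40.4 and 58.8 CPM in unstimulated WT and 132, 75.7 and 67.2 CPM in ACAT1 KO lines, and 1642, 2019 and 2048 and 3483, 2597 and 2403 CPM after LPS. It rose by 5.08 (log2) in WT and 4.95 in ACAT1 KO lines, and the interaction of -0.13 did not pass (edgeR, adjusted p = 0.978 without and 0.894 with the block). Il10 had 3.1, 0.61 and 1.15 and 1.2, 1.03 and 0.966 CPM without stimulation and 0.797, 0.75 and 0.78 and 6.44, 3.23 and 2.42 CPM after LPS. Its 3 ACAT1 KO lines lay above the WT lines after LPS and its interaction of 2.58 did not pass (SE 0.54; edgeR, adjusted p = 0.0613 with the block). Ifnb1, which encodes interferon-beta, was listed after LPS alone, so no interaction could be computed. After LPS it had 21.6, 33.5 and 49.7 CPM in WT lines and 109, 84.4 and 58.4 CPM in ACAT1 KO lines, each ACAT1 KO line above each WT line. Of 56 genes listed after LPS alone at a mean of at least 1 CPM, 33.9% had every ACAT1 KO line above every WT line and 17.9% had every one below. With 3 lines against 3 the smallest two-sided exact permutation p for one gene is 0.1.

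**Figure D4:**
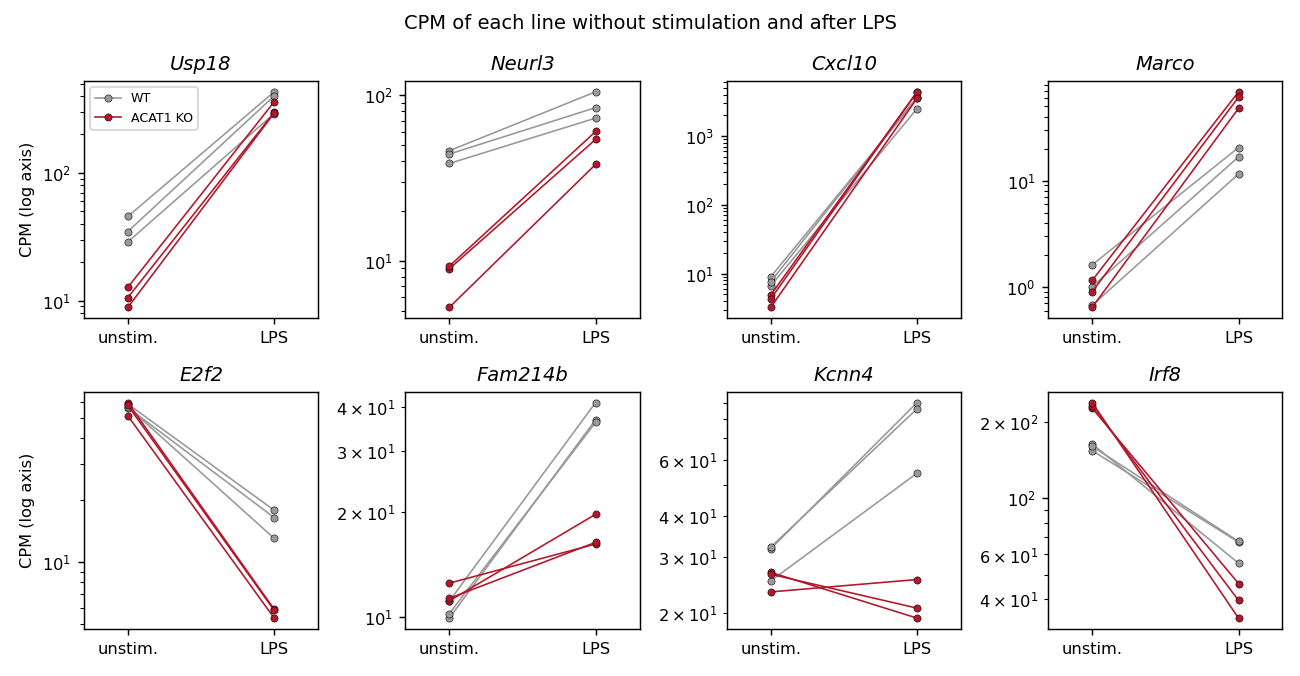
CPM (log axis) of each line without stimulation and after LPS for 8 genes, with the libraries of one line joined; grey is WT and red is ACAT1 KO. Usp18 and Cxcl10 start lower in ACAT1 KO lines and overlap WT after LPS, Marco starts in the WT range and ends higher, Fam214b starts slightly higher and ends lower, and E2f2 and Kcnn4 start with overlapping lines and end lower.

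Outside the interferon genes, several surface and metabolic genes rose more in ACAT1 KO lines. Marco, a scavenger receptor of macrophages (chr1:120474538-120505024, minus strand), had 1, 0.671 and 1.61 CPM in unstimulated WT and 1.15, 0.642 and 0.9 CPM in ACAT1 KO lines, and 16.7, 11.5 and 20.5 and 68.4, 47.8 and 60.8 CPM after LPS. The genotypes overlapped without stimulation and were apart after LPS, with an interaction of 2.15 (SE 0.15; edgeR, adjusted p = 0.00127 with the block and 0.0737 without). Adgre1, the gene of the macrophage antigen F4/80 (chr17:57358691-57483527, plus strand), had 64.8, 82.4 and 74.7 against 44.7, 45.5 and 37.7 CPM without stimulation and 142, 165 and 166 against 164, 159 and 161 CPM after LPS. It differed without stimulation and overlapped after LPS, and passed in both fits at 0.83 (SE 0.14; edgeR, adjusted p = 0.0423 without and 0.00708 with the block). Of the fits without the block that left out a library, Adgre1 passed only in that without WT unstimulated line 1 (edgeR, adjusted p = 0.0329). In bulk samples, fewer cells that carry a transcript and less of it in each cell cannot be told apart.

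Mylip, the ubiquitin ligase that degrades the LDL receptor (chr13:45389742-45412022, plus strand), had 16.7, 24.3 and 25.2 CPM in unstimulated WT and 14.9, 14.6 and 14.4 CPM in ACAT1 KO lines, and 45.7, 43.3 and 47.3 and 77.3, 69.2 and 65.7 CPM after LPS. It was lower in each ACAT1 KO line before and higher in each one after LPS, with an interaction of 1.23 (SE 0.18; edgeR, adjusted p = 0.0333 without and 0.0111 with the block). Hmgcs1, of cholesterol synthesis, was positive with the block at 0.50 (adjusted p = 0.0364), and these 2 were the calls among 27 cholesterol synthesis and LXR genes tested. Pdgfra, a growth factor receptor, had 1.5, 1.19 and 1.67 and 1.14, 1.36 and 1.19 CPM without stimulation and 5.53, 6.16 and 6.48 and 11.5, 11.3 and 12.9 CPM after LPS. It overlapped before LPS and was higher in each ACAT1 KO line after it, with an interaction of 1.22 (SE 0.19; edgeR, adjusted p = 0.0383 without and 0.0165 with the block). Pdgfra is also a fibroblast marker, and of the 4 fibroblast markers fixed it was the 1 held by both tables, with Col1a1, Col1a2 and Col3a1 not among the joined genes. Klrk1, the 1 of 4 NK cell markers held by both tables, lay between 0.504 and 2.37 CPM in WT and between 2.64 and 4.09 CPM in ACAT1 KO lines after LPS. The part of other cell types in these results was not tested. Ttc39c had 4.3, 4.01 and 4.34 and 4.07, 3.93 and 4.24 CPM before and 18.7, 15.5 and 23.5 and 51, 44.3 and 42.9 CPM after LPS, overlapping before and apart after, with an interaction of 1.31 (edgeR, adjusted p = 0.0323 without and 0.00657 with the block). The stress-inducible gene Gadd45b at 1.08, the homeobox repressor gene Zhx2 at 0.51 and the antisense transcript A630072M18Rik at 1.19 completed the 8 positive genes called in both fits (edgeR without the block, adjusted p = 0.0383, 0.0423 and 0.0423). Without the block, no positive gene passed in the fits that left out ACAT1 KO unstimulated line 3 or any ACAT1 KO LPS library. Exons of Rsbn1l on the other strand cover 95% of the exon bases of A630072M18Rik, and the counting strand is not given in the sources used here.

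NRF2 target genes, which encode antioxidant enzymes and cystine uptake, had a median interaction of 0.32. With the block 4 of 20 were positive and none negative, against 0.835% and 0.907% of all genes. In 14 of the 20 the LPS change of each ACAT1 KO line was above that of each WT line, against 6.89% of all genes. Slc7a11, the cystine transporter (chr3:49892526-50443614, minus strand), had 44.5, 48.5 and 48.7 against 49.8, 29.2 and 37.6 CPM without stimulation and 317, 206 and 239.9 against 606, 349 and 479.8 CPM after LPS. It overlapped before and was higher in each ACAT1 KO line after LPS, with an interaction of 1.21 (SE 0.17; edgeR, adjusted p = 0.0147 with the block and 0.176 without). Osgin1, an oxidative stress response gene (chr8:119434124-119446256, plus strand), had 36.5, 34.8 and 39.4 and 24.6, 19.1 and 22.1 CPM without stimulation and 15, 5.34 and 9.12 and 21.4, 12.5 and 21.4 CPM after LPS. In the fit without the block it changed by -1.92 (log2, SE 0.31) in WT and by -0.25 (SE 0.30) in ACAT1 KO lines. The interaction in the fit with the block was 1.74 (SE 0.32; edgeR, adjusted p = 0.0377). Glutathione reductase Gsr at 0.60 and peroxiredoxin Prdx1 at 0.46 were the other 2 (edgeR with the block, adjusted p = 0.0229 and 0.0132).

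Genes of E2F factors and of cyclin E, which drive entry into DNA synthesis, were among the negative calls. E2f2, an activating E2F factor (chr4:136172394-136196057, plus strand), had 56.5, 58.8 and 56.9 CPM in unstimulated WT lines and 51.5, 59.7 and 57.9 CPM in ACAT1 KO lines, and 16.5, 17.9 and 13.1 and 5.37, 5.92 and 5.85 CPM after LPS. The genotypes overlapped without stimulation and were apart after LPS, where each ACAT1 KO line was lower. The interaction was -1.44 (SE 0.15; edgeR, adjusted p = 0.00441 without and 0.0029 with the block), and E2f2 passed in 12 of 12 fits that left out a library. E2f8, a repressive E2F factor, had 61.2, 73.2 and 72 and 62.5, 76.4 and 73.7 CPM before and 31.3, 36.6 and 29.7 and 14.9, 18.9 and 16 CPM after LPS, with an interaction of -1.01 (edgeR, adjusted p = 0.0383 without and 0.00463 with the block). Cyclin genes Ccne2 and Ccne1 were negative with the block at -1.09 and -0.82 (edgeR, adjusted p = 0.00366 and 0.0207). Of 35 DNA replication and mitosis genes tested, 3 (E2f2, Ccne2 and Ccne1) were negative and none positive with the block, against 0.907% and 0.835% of all genes. The median of this list was -0.11. Of its 35 values 3 were above 0, against 6838 of 16535 over all genes. Myc, the growth factor-induced transcription factor, had 22.3, 22.5 and 21.3 and 24.1, 20.5 and 21.4 CPM before and 28.7, 29.1 and 28.7 and 19.6, 20.4 and 19.4 CPM after LPS, an interaction of -0.54 (edgeR, adjusted p = 0.0463 without and 0.0276 with the block).

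Fam214b (chr4:43032414-43046220, minus strand) had 11.1, 9.94 and 10.2 CPM in unstimulated WT and 12.5, 11.1 and 11.3 CPM in ACAT1 KO lines, and 41.2, 36.8 and 36.1 and 16.2, 19.7 and 16.4 CPM after LPS. The ACAT1 KO lines lay just above the WT lines before LPS, with 11.1 CPM as the lowest of the former and the highest of the latter. The gene rose in WT lines by 1.87 (log2) and in ACAT1 KO lines by 0.58, and was lower in each ACAT1 KO line after LPS. Its interaction of -1.29 (SE 0.13; edgeR, adjusted p = 0.00441 without and 0.00366 with the block) also passed in 12 of 12 fits that left out a library. Kcnn4, a calcium-activated potassium channel (chr7:24370263-24386690, plus strand), had 31.7, 32.1 and 25.2 and 26.8, 23.3 and 26.4 CPM before and 90.2, 86.3 and 54.5 and 19.3, 25.4 and 20.7 CPM after LPS. The WT lines rose by 1.38 while the ACAT1 KO change was -0.22 (SE 0.18), giving an interaction of -1.60 (SE 0.25; edgeR, adjusted p = 0.0383 without and 0.00657 with the block), the most negative of the 31. Capn2, a calcium-dependent protease (chr1:182467260-182517608, minus strand), had 66.3, 66.9 and 56.8 against 56.6, 51.8 and 44 CPM before and 155, 164 and 131 against 60.6, 62.4 and 48.9 CPM after LPS, and an interaction of -1.07 (edgeR, adjusted p = 0.0383 without and 0.00118 with the block). In Capn2 the genotypes were apart in both states and further apart after LPS.

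Trim16, a tripartite motif protein gene, went from 7.46, 6.59 and 6.22 to 35.5, 34.1 and 32.8 CPM in WT lines and from 7.13, 5.86 and 4.58 to 12.8, 13 and 11.8 CPM in ACAT1 KO lines. It overlapped before LPS and was lower in each ACAT1 KO line after it, with an interaction of -1.24 (SE 0.19; edgeR, adjusted p = 0.0367 without and 0.00701 with the block). Serpinb9, a granzyme B inhibitor, at -0.94, the tyrosine kinase gene Tec at -0.82 and the mitochondrial sodium and calcium exchanger gene Slc8b1 at -0.74 showed the same order of groups after LPS (edgeR without the block, adjusted p = 0.0423, 0.0323 and 0.0383). The transcription factor genes Klf13 at -0.83 and Hhex at -0.82 and the receptor tyrosine kinase inhibitor gene Spry2 at -0.98 fell in both genotypes and further in ACAT1 KO lines (edgeR without the block, adjusted p = 0.0423, 0.0367 and 0.0495). Rgs12, Slc49a4, Nfatc1, Ehbp1l1, Tmbim1, 2310022A10Rik, Gdpd5, Tmem131l and Gtpbp2 made up the rest of the 23, with interactions from -1.03 to -0.51. With the block alone, the kinase gene Dyrk3 at -1.56 and the carrier gene Slc35e4 at -0.57 were also among the 12 negative genes of smallest p (edgeR, adjusted p = 0.00366 and 0.00657).

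Immediate early factors and dual-specificity phosphatases were split. Of 33 tested, Dusp5 at 0.97 and Nr4a1 at 1.31 were positive and Ier3 at -1.04 and Myc negative with the block (edgeR, adjusted p = 0.0194, 0.0418 and 0.0118), with a list median of -0.23. None of 23 TLR4 receptor and adaptor genes passed with the block and 1 of 30 NF-kB subunits and feedback inhibitors did, the mRNA decay factor gene Zfp36l2 at -0.40 (edgeR, adjusted p = 0.0446), with medians of -0.043 and -0.058. The NF-kB median was 0.0517 within the lines of high antisense share and -0.14 within those of low share. No histone acetyltransferase or deacetylase gene of 36 passed, with a median of -0.082 and 5 values above 0, and of 38 histone methyltransferase and demethylase genes Dot1l was negative at -0.63 (edgeR with the block, adjusted p = 0.0256). Values above 0 were also the minority over all genes, at 6838 of 16535. They were 30.7% among the 9548 genes with a mean of at least 1 CPM and a mean LPS change under 1 (log2) in either direction. In the glycolysis and HIF list the glucose transporter gene Slc2a1 was negative at -0.55 (edgeR with the block, adjusted p = 0.015), the 1 call among 25, while the list median was -0.19 and 22 of its values were at or below 0. Without line 1 of both genotypes, which leaves out the WT library of high mitochondrial share, the median was -0.073 in this list, -0.096 in the immediate early list, -0.06 in the histone methyltransferase and demethylase list, -0.055 in the DNA replication list and -0.044 in the integrated stress list, and that of all genes went from -0.038 to 0.0034. Among 33 fatty acid oxidation and acetyl-CoA genes Hmgcs1 was the 1 call, with a median of -0.014, and among 23 integrated stress and unfolded protein response genes none passed, with a median of -0.13. The inflammasome, nitric oxide, itaconate and prostaglandin list of 24 had Marco and Slc7a11 as its 2 calls and a median of 0.099. Slc7a11 was counted among the NRF2 calls too, and Hmgcs1 among the cholesterol calls, because these lists share members. Of 29 macrophage lineage and surface genes, Adgre1 and the lectin gene Clec4e at 0.52 were positive and Cd28 at -0.75 and Cx3cr1 at -0.53 negative with the block (edgeR, adjusted p = 0.0201, 0.0276 and 0.0364), with a median of 0.054. A median near 0 changes sign with the scaling in the NF-kB, TLR4, interferon receptor and fatty acid lists, which were at 0.0037, 0.017, 0.017 and 0.049 with upper-quartile scaling.

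**Figure D5:**
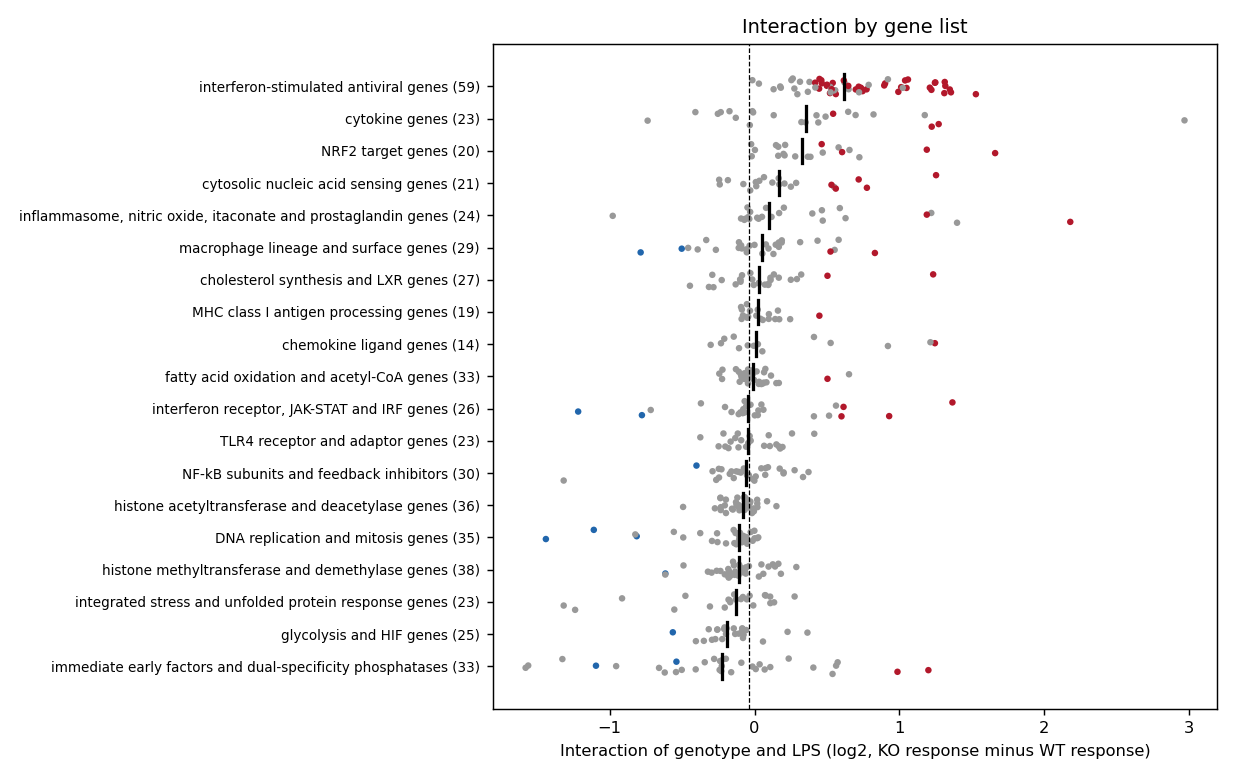
Interaction (log2, ACAT1 KO LPS response minus WT LPS response) of each gene tested in 19 lists, with the number tested in brackets; red and blue points were positive and negative with the line as a block, grey points did not pass, black bars are list medians and the dashed line is the median of all genes. The interferon-stimulated antiviral genes lie furthest to the right, with a median of 0.62.

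Positive interactions were found mainly among strongly induced genes. Of 575 genes whose mean LPS change over both genotypes was at least 2 (log2), 78 were positive (13.6%) and 9 negative with the block, and their median interaction was 0.30. Without the interferon, JAK-STAT and sensing lists, 45 of 518 such genes were positive (8.69%) and the median was 0.26. Among 1197 genes that changed by 1 to 2, 35 were positive and 10 negative, and among 12886 that changed by less than 1 in either direction 22 were positive and 88 negative. Of 1409 genes that fell by 1 to 2, 3 were positive and 33 negative, and of 468 that fell further none was positive and 10 were negative (edgeR with the block; without it none of the 468 was positive and 2 were negative). The median interaction of these 468 genes was nonetheless above 0, at 0.099 without and 0.25 with the block, and 55.8% of their values were above 0. For the 263 of them with a mean of at least 1 CPM it was -0.022 without and 0.064 with the block.

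The number of calls depended on single libraries and lines. Without the block, fits that left out a library called from 2 to 41 genes, with 2 without ACAT1 KO LPS line 2, 3 without WT unstimulated line 2, ACAT1 KO unstimulated line 3, ACAT1 KO LPS line 1 or ACAT1 KO LPS line 3, 4 without WT LPS line 2, 5 without ACAT1 KO unstimulated line 2, 6 without WT LPS line 1 and 9 without ACAT1 KO unstimulated line 1. With the block, leaving out a line left 260 calls without WT line 1, 80 without WT line 2, 326 without WT line 3, 75 without ACAT1 KO line 1, 112 without ACAT1 KO line 2 and 73 without ACAT1 KO line 3. In all 6 of these fits 52 of the 288 genes passed, 27 of them positive, among them Usp18, Gbp7, Isg15, Cxcl10, Mx1, Mx2, Cmpk2, Ifi44l, Stat2, Irf7, Ifih1, Neurl3, Marco, Sdc4 and Adgre1, and on the negative side E2f2, E2f8, Ccne2, Fam214b, Kcnn4, Capn2, Trim16, Irf8, Tec and Serpinb9. Sdc4, a heparan sulphate proteoglycan, had an interaction of 1.09 with the block (edgeR, adjusted p = 0.00546). The median interaction of the interferon-stimulated genes was from 0.56 to 0.67 in the same 6 fits. A fit without a line has fewer residual degrees of freedom. Of genes named here, Capn2, Tmbim1, Dusp5, Ccne2, Adar, Tnfsf9, Hmgcs1 and E2f8 share 11.2% to 27.1% of their exon bases with a gene on the other strand, and reads of such pairs may not have been told apart. Within the lines of high antisense share the 31 genes had median interactions of 1.14 (positive) and -0.78 (negative), and within those of low share 1.08 and -0.78. The 31 genes were chosen by their interaction in these same libraries, so these medians describe them and are no test of the antisense difference. Il1b, at 1.78 within the lines of high share and 1.07 within the others, Nr4a1, at 0.71 and 1.81, and Dusp5, at 1.18 and 0.61, are examples of genes whose value differed between these sets of lines.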

How the data were processed

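RNA-seq covered 3 WT and 3 ACAT1 KO J774A.1 lines in both states. Per the labels, the authors used Trimmomatic 0.33, HISAT2 on GRCm38 and StringTie. They deposited a table of raw counts per gene for each state. Every listed gene had at least 4 counts in at least 5 of 6 libraries of its state. How whole counts were made and which strand was counted are not given in the sources used here. The deposited files also hold 12 columns of log2 values, which were not used.

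Counts of both tables were joined on the Ensembl gene identifier, first row per identifier (59 and 57 repeated rows removed). Tests were made with edgeR 4.0.16 in R 4.3.3 (filterByExpr, TMM, quasi-likelihood F test over 4 group means, Benjamini-Hochberg at 0.05). CPM values are TMM-scaled, except for genes of 1 table, which were scaled to the table total. The LPS change of a line is a difference of log2 CPM with a prior count of 2. Alternatives were DESeq2 1.42.0, limma-voom 3.58.1, other scalings and filters, and fits without a library or line. The members and lists were chosen with earlier results of these data known.

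The labels do not say that equal replicate numbers mark the same line in both states. Deviations of same-numbered libraries from their group means correlated at 0.139 to 0.454 over 11961 genes with at least 1 CPM (other pairs, -0.344 to 0.0976) and at 0.0913 to 0.307 over all 16535 (other pairs, -0.214 to 0.0375), so the numbers were taken to pair the libraries and the block value stands beside each result it changes. The pairing was held to a correlation over 0.1 in every pair. Over all genes 1 pair of 6 missed this limit, and the 1 CPM minimum was not set in advance. On simulated counts for this interaction with 200 changed of 16535 genes, the fit without the block called 64 of 100 genes changed by 1 (log2) and 99 of 100 changed by 2, and 0 others, and the fit with the block 96, 99 and 10 others. The simulation gave every gene the same overdispersion, so recovery and false calls in these data may differ. It also built in line effects shared by same-numbered libraries, so it does not test the pairing. Genes named were those called without the block (at most 20 per direction), the 12 of smallest p per direction with it, at most 5 per list and the genes the study measured, all at a mean of at least 1 CPM where called, and of these the text describes a selection. A result for 1 gene of the interferon lists is not reported here. Gene positions are from GENCODE M21, and promoters from RefSeq (GRCm38.p6).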

Additional observations from a re-analysis of the deposited data

Results flagged for a closer look

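A difference of the LPS change between the genotypes was found by its own test for 31 genes without the block for the line (edgeR, adjusted p under 0.05). Above 0 were Ttc39c (1.31), Mylip (1.23), Pdgfra (1.22), Gbp7 (1.21), A630072M18Rik (1.19), Gadd45b (1.08), Adgre1 (0.83) and Zhx2 (0.51), as log2 interactions. Below 0 were Kcnn4 (-1.60), E2f2 (-1.44), Fam214b (-1.29), Trim16 (-1.24), Irf8 (-1.22), Capn2 (-1.07), Rgs12 (-1.03), E2f8 (-1.01), Spry2 (-0.98), Serpinb9 (-0.94), Klf13 (-0.83), Hhex (-0.82), Tec (-0.82), Slc49a4 (-0.77), Slc8b1 (-0.74), Nfatc1 (-0.62), Ehbp1l1 (-0.62), Tmbim1 (-0.62), 2310022A10Rik (-0.56), Gdpd5 (-0.55), Myc (-0.54), Tmem131l (-0.51) and Gtpbp2 (-0.51). Of these, E2f2 and Fam214b passed in all 12 fits that left out a library and Irf8 in 8, while Rgs12, Spry2, Gdpd5, Myc and Gtpbp2 passed in 0. None of the 8 positive genes passed in the fits that left out ACAT1 KO unstimulated line 3 or any ACAT1 KO LPS library.

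Genes of the lists that were listed after LPS alone could not enter the interaction and are described here. The ACAT1 KO mean after LPS, with each ACAT1 KO line above each WT line, was 83.97 CPM for Ifnb1 (SD 25.4, n = 3; WT 34.9, SD 14.1), 19.48 for Nr4a3 (WT 11.3), 12.53 for Il12b (WT 4.12), 12.55 for Csf2 (WT 8.19), 2.286 for Cxcl3 (WT 1.65) and 2.233 for Edn1 (WT 1.05). For Cxcl3 the lowest ACAT1 KO line was at 2.172 and the highest WT line at 2.095 CPM. Of 12 such genes with a mean of at least 1 CPM, 6 had each ACAT1 KO line above each WT line, 1 (Cx3cl1) had the opposite order and 5 overlapped. Among the 56 genes listed after LPS alone, which include these 12, the shares were 33.9% and 17.9%. The genotype difference of these genes without stimulation could not be measured, and no test was made on them.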

How the results depend on the processing

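The count of 31 genes with an interaction (8 positive, 23 negative) was 288 (138 and 150) with the replicate block. With the block it was 296 (133 and 163) on thinned libraries, 457 (200 and 257) with a term for the antisense share, 231 (131 and 100) without chromosome 12 and distal chromosome 2, and, as alternatives chosen after seeing the data, 275 (144 and 131) with RLE scaling, 255 (160 and 95) with upper-quartile scaling, 268 (133 and 135) with limma-voom, 733 (308 and 425) with DESeq2 and 75 without line 1 of both genotypes (46 positive). Of the 288 genes, limma-voom and DESeq2 with the block also called 259 and 286. Without the block DESeq2 called 333 (138 and 195) and limma-voom 11 (1 and 10), upper-quartile scaling left 13 negative genes, and a minimum of 10 counts in every library gave 13 positive ones; RLE scaling, no filter, the robust dispersion and leaving out both regions gave 24 to 40 genes. Fits without a library or, with the block, without a line ran from 2 to 326 genes (positive 0 to 139, negative 2 to 187). The causes of these moves beyond the smaller number of libraries were not tested. Interactions that changed sign were those of Irf3, at 0.018 with the antisense term, 0.098 without line 1 and -0.22 to 0.011 over the fits without a library or line, Socs3 (-0.058 to 0.78) and Tnf (-0.38 to 0.23), none of which passed in the fits described above. All other genes named kept their direction in every alternative run. Of the list medians, 39 values moved by over 1 SD of the lines and 626 did not. No interaction could be computed for genes listed in 1 table, and the part of depth in this was not tested.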
